A study of Mus musculus with 30 samples.

Results

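The epithelial junction genes described here are 10 genes taken by name from the count table of the series: Cldn1, Cldn3, Cldn4, Cldn7, Ocln, Tjp1, Tjp3, Cgn, Cdh1 and Epcam. They are 10 of the 33924 genes counted, and all 10 were among the 19016 genes with enough counts to be tested. RNA of mouse thyroid was sequenced in 10 groups. The labels list 30 samples, of which 28 libraries were analysed here, with 3 a group except for 2 in each Braf Arid2 KO group. The V600E change makes the kinase Braf constantly active, and Arid1a, Arid2 and Smarcb1 encode subunits of SWI/SNF, a complex that moves nucleosomes. Wild-type and Arid1a KO thyroids carried no Braf mutation and were untreated. The other genotypes were Braf(V600E) alone and Braf(V600E) with Arid1a KO, Arid2 KO or Smarcb1 KO. Mice of each of these 4 genotypes were given vehicle or the MEK inhibitor CH5126766, named CKI in the labels, over 8 days, and were killed about 2 h after their final dose. The labels name no strain, age, promoter or Cre driver for any group. One text in the labels has wild-type, Arid2 and Smarcb1 thyroids frozen whole, and another has YFP-positive cells sorted from dissociated glands. Both texts stand on every sample, so a difference in preparation cannot be told apart from genotype in comparisons across these groups. Whether each library came from an animal of its own is not given, and p-values measure only the spread between these libraries.

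Epithelial cells such as thyroid follicular cells are joined near their apical side by tight junctions, which seal the space between cells, and below them by adherens junctions, which hold cells together. Claudins and occludin are the membrane proteins of tight junction strands, the scaffolds ZO-1 (Tjp1) and ZO-3 (Tjp3) bind them from inside, and cingulin (Cgn) links the scaffold to the cytoskeleton. E-cadherin (Cdh1) is the adhesion receptor of epithelial adherens junctions, and Epcam is an epithelial adhesion protein that binds claudin-7. In the thyroid these contacts close the follicle lumen in which thyroglobulin is stored.

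Promoter sequences were read from RefSeq (build GRCm38.p6) for 9 of the 10 genes, as the 250 bases before each of 12 annotated starts. The authors' counts were made on another build, mm9, so these positions belong to GRCm38.p6 only. The first printed is that of Cldn4, the gene with the largest fall upon Smarcb1 loss, followed by Cldn3, its neighbour among coding genes on chromosome 5. Cldn1 is the gene that moved the other way, and Epcam is one that passed in no comparison. Capitals mark matches to 3 motifs searched on both strands: CAGGTG, the E-box type bound by Snai and Zeb factors, TGANTCA, the AP-1 site, and AACCGGTT, a Grainyhead site.
Cldn4, chr5:134946935-134947184, minus strand: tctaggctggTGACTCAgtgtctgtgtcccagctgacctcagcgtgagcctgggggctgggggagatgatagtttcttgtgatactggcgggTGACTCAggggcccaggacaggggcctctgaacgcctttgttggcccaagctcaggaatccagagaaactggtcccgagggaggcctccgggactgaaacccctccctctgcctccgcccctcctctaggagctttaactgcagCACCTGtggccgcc
Cldn3, chr5:134985964-134986213, plus strand: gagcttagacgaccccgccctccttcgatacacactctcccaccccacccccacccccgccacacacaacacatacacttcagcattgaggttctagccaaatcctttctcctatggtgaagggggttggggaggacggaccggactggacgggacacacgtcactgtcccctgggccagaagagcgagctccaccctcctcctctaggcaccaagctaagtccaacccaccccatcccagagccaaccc
Cldn1, chr16:26371840-26372089, minus strand: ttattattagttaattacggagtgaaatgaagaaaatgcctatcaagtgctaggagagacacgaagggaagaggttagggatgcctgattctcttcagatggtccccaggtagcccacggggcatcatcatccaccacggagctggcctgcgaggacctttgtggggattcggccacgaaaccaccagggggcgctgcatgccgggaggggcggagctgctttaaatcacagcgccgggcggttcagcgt
Epcam, chr17:87635729-87635978, plus strand: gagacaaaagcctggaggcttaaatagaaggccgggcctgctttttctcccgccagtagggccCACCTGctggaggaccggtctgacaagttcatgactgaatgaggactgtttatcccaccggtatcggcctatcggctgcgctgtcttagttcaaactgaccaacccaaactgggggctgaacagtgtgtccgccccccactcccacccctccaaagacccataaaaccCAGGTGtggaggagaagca

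The E-box type stood in 6 of the 12 windows, from 5 of the 9 genes, and in 17.2% of 32851 windows of the same length over all RefSeq genes. Cldn4 held 1 match beginning 14 bases before its start, and Epcam held 2, beginning 187 and 19 bases before it. Cldn7, Ocln and Tjp3 held the others, and Cldn1, Cldn3, Tjp1 and Cgn held none. The AP-1 site occurred in 1 of the 12 windows, that of Cldn4, with 2 matches beginning 240 and 158 bases before the start, against 6.75% of all windows. No window held the Grainyhead site, which 0.116% of all windows did. A match is a description of letters, and no factor's binding was measured.

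Depth was 23879271 to 34400066 counts per library. Levels are in CPM, that is counts relative to each library's total after its TMM adjustment. The general epithelial level is the summed CPM of 11 epithelial genes that are not junction genes, such as the keratins Krt8 and Krt18. It ran from 3706 to 4016 in wild type and from 5989 to 19146 in Braf vehicle. It was lower in Arid1a KO (1081 to 2920), Braf Smarcb1 KO vehicle (789 to 2796) and Braf Smarcb1 KO with CKI (718 to 2579). In bulk tissue, fewer epithelial cells and less RNA per epithelial cell cannot be told apart. Thyroglobulin, the defining thyrocyte product, stood at 58871 to 155494 CPM in wild type but at 161 to 894 CPM in Braf vehicle and 14.2 to 114 CPM in Braf Smarcb1 KO vehicle. Smarcb1 was lower in Braf Smarcb1 KO than in Braf (log2 fold change -3.26 under vehicle, adjusted p = 0.000592, and -2.95 with CKI, adjusted p = 0.00188). The libraries labelled Arid1a KO had less Smarcb1 than wild type too (-1.76, adjusted p = 0.0373). Arid1a and Arid2 did not pass in their own knockouts without CKI (adjusted p from 0.189 to 0.474). The log2 fold change was -0.47 for Arid1a in Arid1a KO and -0.60 in Braf Arid1a KO. For Arid2 in Braf Arid2 KO it was 0.87, on the higher side. Counts over a whole gene do not check those labels.

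Levels of different genes are compared per kilobase of the longest annotated transcript. In wild-type thyroid Cldn3 was the most abundant of the 10 (180.4 ± 65.2 CPM per kb, mean ± SD, n = 3), before Cldn7 (129.9 ± 24.8), Cdh1 (114 ± 24.8) and Cldn4 (70.9 ± 12.2). The least abundant were Cldn1 (6.07 ± 3.62) and Tjp1 (4.99 ± 0.176). In Braf vehicle thyroids Cldn4 stood beside Cldn3 (401 ± 187 and 409 ± 244 CPM per kb). In Braf Smarcb1 KO vehicle Cldn1 came second to Cldn3 (68.5 ± 28.4 and 89.8 ± 48.4), and the spread of most genes there was wide.

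**Figure D1:**
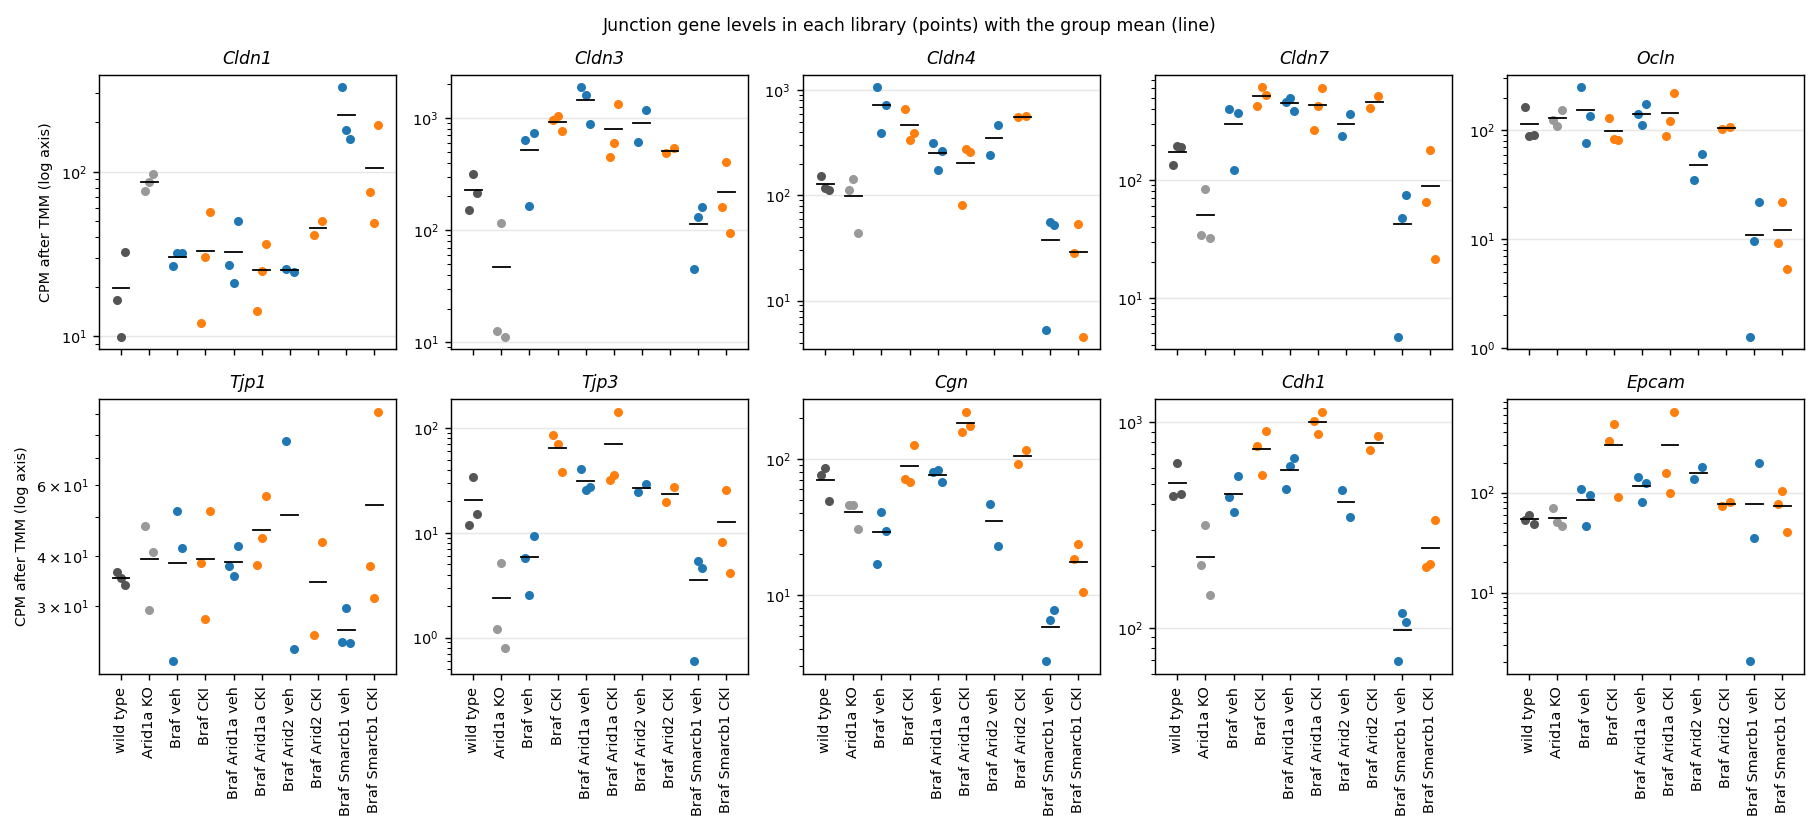
Each panel plots 1 junction gene, with CPM on a log axis and the 10 groups along the horizontal axis; points are libraries and lines are group means, in grey for untreated, blue for vehicle and orange for CKI. Cldn1 is highest in the Braf Smarcb1 KO groups and in Arid1a KO, while Cldn4, Ocln and Cgn are lowest in the former and Cldn7 and Cdh1 in Braf Smarcb1 KO vehicle, and Tjp1 spans only 21.9 to 91.3 CPM.

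The genes differed in how far they ranged. Between the highest and lowest group means lay 31.6-fold for Cgn, 31.1-fold for Cldn3, 29.3-fold for Tjp3, 25.3-fold for Cldn4, 13.9-fold for Ocln, 12.3-fold for Cldn7, 11.3-fold for Cldn1 and 10.3-fold for Cdh1. Epcam ranged 5.57-fold and Tjp1, whose protein also serves cells other than epithelium, 2.05-fold. Braf Smarcb1 KO vehicle was the lowest group for 5 genes (Cldn7, Ocln, Tjp1, Cgn and Cdh1), and Braf Arid1a KO with CKI was the highest for 3 (Tjp3, Cgn and Cdh1). Of the 9 neighbouring pairs in each gene's order of groups, 0 to 3 had libraries that did not overlap, so most neighbours in these orders do not differ beyond their spread. For Cgn, Braf Arid1a KO with CKI stood clear above all other groups. For Cdh1 it stood clear above the next group, Braf Arid2 KO with CKI. It overlapped Braf with CKI there (879 to 1128 against 554 to 907 CPM). For both genes, Braf Smarcb1 KO vehicle stood clear below all others.

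The first question was what Smarcb1 loss went with in Braf mutant thyroids. Under vehicle, 6 of the 10 junction genes fell (Cldn3, Cldn4, Cldn7, Ocln, Cgn and Cdh1) and 1 rose (Cldn1), while Tjp1, Tjp3 and Epcam did not pass. Of all genes tested, 28.6% passed, 14.4% higher and 14.2% lower. The libraries of 7 junction genes did not overlap between genotypes, the same 7, as held for 36.5% of all genes. The median log2 fold change of the 10 was -2.19, against 0.03 over all genes. All fold changes are from edgeR's quasi-likelihood test, with p-values adjusted by Benjamini-Hochberg over the 19016 genes, and a gene passes below 0.05.

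Among the claudins, Cldn4 (claudin-4, a sealing claudin) measured 1074, 396 and 717 CPM in Braf vehicle and 5.22, 56.3 and 52.4 CPM in Braf Smarcb1 KO vehicle. Every knockout library lay below every Braf library (log2 fold change -4.26, SE 0.80, adjusted p = 0.000539). Claudin-7, Cldn7, which is abundant in many simple epithelia, went from 399, 122 and 368 CPM to 4.69, 47.3 and 75.4 CPM (-2.80, SE 0.72, adjusted p = 0.00594). Its groups did not overlap either, though Braf library 4 was the lowest of its group. A fit of only these 2 groups did not call Cldn7 (adjusted p = 0.0782). Cldn3 (claudin-3) went from 637, 165 and 742 CPM to 45.0, 132 and 162 CPM, and its groups nearly touched (-2.19, SE 0.75, adjusted p = 0.0330). This call was lost without Braf vehicle library 2 or 5 (adjusted p = 0.0920 and 0.0922) and without knockout library 1 or 2 (adjusted p = 0.118 and 0.0714). It was lost too in the edgeR fit with the replicate number as a block (adjusted p = 0.168).

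Cldn1 (claudin-1, a barrier claudin best known from the epidermis) moved the other way. It measured 26.7, 32.0 and 32.0 CPM in Braf vehicle and 328, 179 and 159 CPM in Braf Smarcb1 KO vehicle. All knockout libraries stood above all Braf libraries (log2 fold change 2.88, SE 0.55, adjusted p = 0.000695), and library 1, the lowest for Cldn3, Cldn4 and Cldn7, was the highest for Cldn1.

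Occludin, Ocln, a membrane protein of the tight junction strand, went from 250.3, 77.4 and 135 CPM to 1.28, 9.74 and 22.2 CPM (log2 fold change -3.80, SE 0.69, adjusted p = 0.000401). Cgn, the cytoplasmic cingulin, went from 17.0, 41.0 and 29.8 CPM to 3.26, 6.60 and 7.77 CPM (-2.32, SE 0.40, adjusted p = 0.000239). For both genes all knockout libraries were below all Braf libraries. Cdh1, encoding E-cadherin, measured 435, 368 and 548 CPM in Braf and 68.8, 119 and 107 CPM in the knockout, also without overlap (-2.20, SE 0.31, adjusted p = 3.78e-05). The scaffold genes Tjp1 and Tjp3 did not pass: Tjp1 had a log2 fold change of -0.56 (adjusted p = 0.317) and Tjp3 of -0.72 (adjusted p = 0.516). Epcam stretched from 2.05 to 196 CPM over the 3 knockout libraries, around the 46.2 to 109 CPM of Braf (-0.10, adjusted p = 0.942).

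Knockout library 1 stood apart from the other two as the lowest in 8 of these genes, all but Cldn1 and Tjp1. Without it, Cldn4, Cldn7, Ocln, Cgn and Cdh1 still fell (log2 fold changes -3.77, -2.30, -3.31, -2.04 and -2.02) and Cldn1 still rose (2.46). Those 6 calls were kept when any 1 of the 6 libraries was left out.

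With CKI in both genotypes, Smarcb1 loss again went with 6 lower genes and 1 higher gene, where 17.1% of all genes passed, 9.19% lower and 7.87% higher. The libraries of 7 genes did not overlap, all lower in the knockout, beside 38.2% of all genes. Cldn4 measured 664, 339 and 393 CPM in Braf with CKI and 28.6, 53.3 and 4.54 CPM in Braf Smarcb1 KO with CKI (log2 fold change -4.02, SE 0.79, adjusted p = 0.00132). Ocln went from 129, 83.1 and 81.5 CPM to 9.18, 21.8 and 5.34 CPM (-3.01, SE 0.66, adjusted p = 0.00321). These groups were far apart, and both calls were kept in every refit that left out 1 library. Cgn (-2.33, SE 0.39, adjusted p = 0.000332) and Cdh1 (-1.60, SE 0.30, adjusted p = 0.000918) fell in the same way and were kept too. Cldn7 (-2.55, adjusted p = 0.0160) was lost without knockout library 1 or 4 (adjusted p = 0.0755 and 0.0774).

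Tjp3 (-2.35, adjusted p = 0.0437) was lost without any of Braf CKI libraries 1, 4 and 5 or knockout libraries 1 and 4 (adjusted p from 0.0501 to 0.169). Cldn1 was called higher with CKI as well (log2 fold change 1.68, SE 0.53, adjusted p = 0.0316), but its libraries overlapped, at 75.7, 48.8 and 193 CPM against 12.1, 30.1 and 56.6 CPM. Its call was lost without Braf CKI library 1 or 4 (adjusted p = 0.139 and 0.0971) and without knockout library 4 (log2 fold change 0.94, adjusted p = 0.262). It was also lost in a fit of the 2 groups alone (adjusted p = 0.103). Without knockout library 4 there were 4 calls in place of 7. Cldn3 (-2.06, adjusted p = 0.0603), Tjp1 and Epcam did not pass. The libraries of Cldn3 did not overlap (94.4 to 404 CPM in the knockout against 760 to 1041 CPM). DESeq2 called Cldn3 (adjusted p = 0.0235), as did the edgeR fit with the replicate number as a block (adjusted p = 0.0445).

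**Figure D2:**
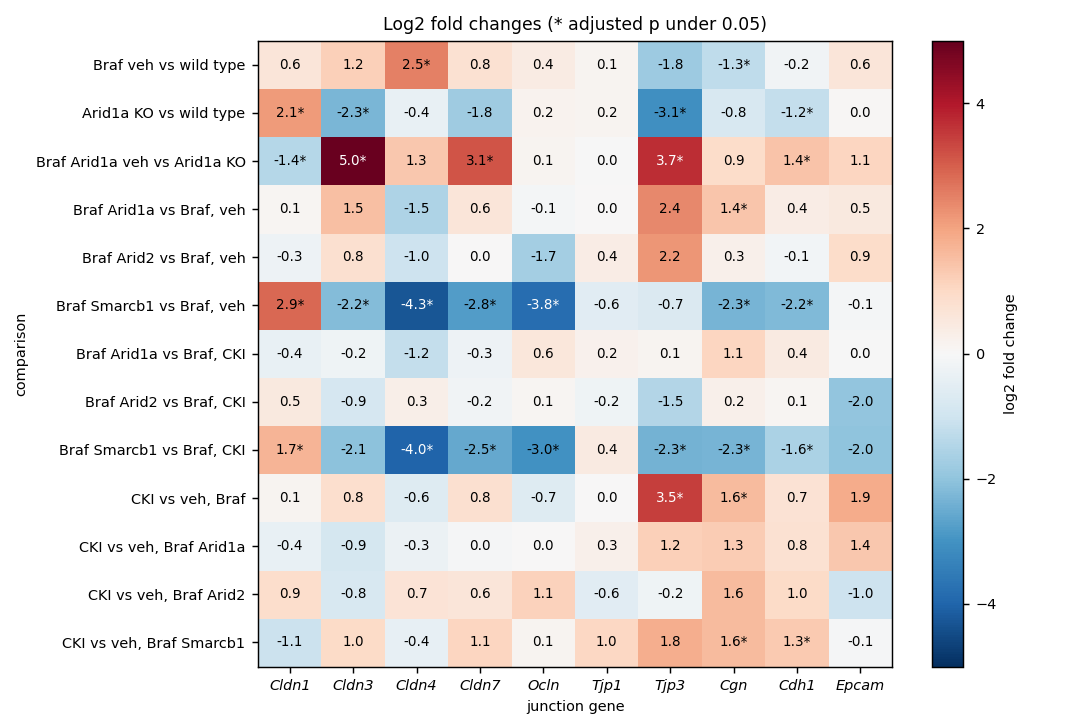
Each cell gives the log2 fold change of 1 junction gene (columns) in 1 comparison (rows), coloured from blue (lower) to red (higher), and a star marks an adjusted p under 0.05. The 2 rows for Smarcb1 loss hold 7 stars each, and Cldn1 is the one starred in red there.

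The order of libraries within the Smarcb1 knockout groups was then read against Smarcb1 itself. Smarcb1 measured 2.28, 10.03 and 17.9 CPM in knockout vehicle libraries 1, 2 and 3, and 18.0, 47.4 and 11.9 CPM in knockout CKI libraries 1, 2 and 4. Cldn3, Cldn7, Ocln, Cgn and Epcam ranked the libraries in the same order as Smarcb1 in both groups, which makes 5 of 10 genes, against 7.85% of the other genes tested. Cldn1 ranked them in the opposite order in both, beside 1241 of the 19015 genes tested other than Smarcb1. The general epithelial level had the Smarcb1 order too, at 789, 1763 and 2796 under vehicle and 1087, 2579 and 718 with CKI. Smarcb1 was not the targeted gene in Arid1a KO. There libraries 1, 2 and 3 held Smarcb1 at 22.3, 62.5 and 15.1 CPM, and the general epithelial level shared that order (1111, 2920 and 1081). Whether the junction genes went with Smarcb1 or with the epithelial level was not tested. These orders rest on 3 libraries a group, were looked at after the values were known, and are given as a description.

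Set against the general epithelial level, the genes did not all move alike. As a percentage of that level, Cldn4 stood at 0.662 to 3.19 in Braf Smarcb1 KO vehicle and at 5.61 to 6.61 in Braf vehicle, and Ocln at 0.162 to 0.793 against 1.09 to 1.31. Both were thus also lower relative to that summed level. Cldn1 was at 5.70% to 41.6% of that level against 0.140% to 0.535%. Tjp1 (0.867% to 3.10% against 0.114% to 0.861%) and Tjp3 (0.0752% to 0.308% against 0.0301% to 0.0749%) lay only just above Braf. Cldn3, Cldn7, Cgn, Cdh1 and Epcam overlapped between the groups on this scale. In all 5 of the 10 did not overlap, a smaller share than the 67.4% of all genes. With CKI, Cldn4 was again lower (0.631% to 2.63% against 3.15% to 7.61%), and Cldn1, Cldn3 and Tjp1 were higher, so that 4 of 10 did not overlap beside 78.4% of all genes. Ocln overlapped with CKI (0.743% to 0.847% against 0.772% to 1.47%).

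**Figure D3:**
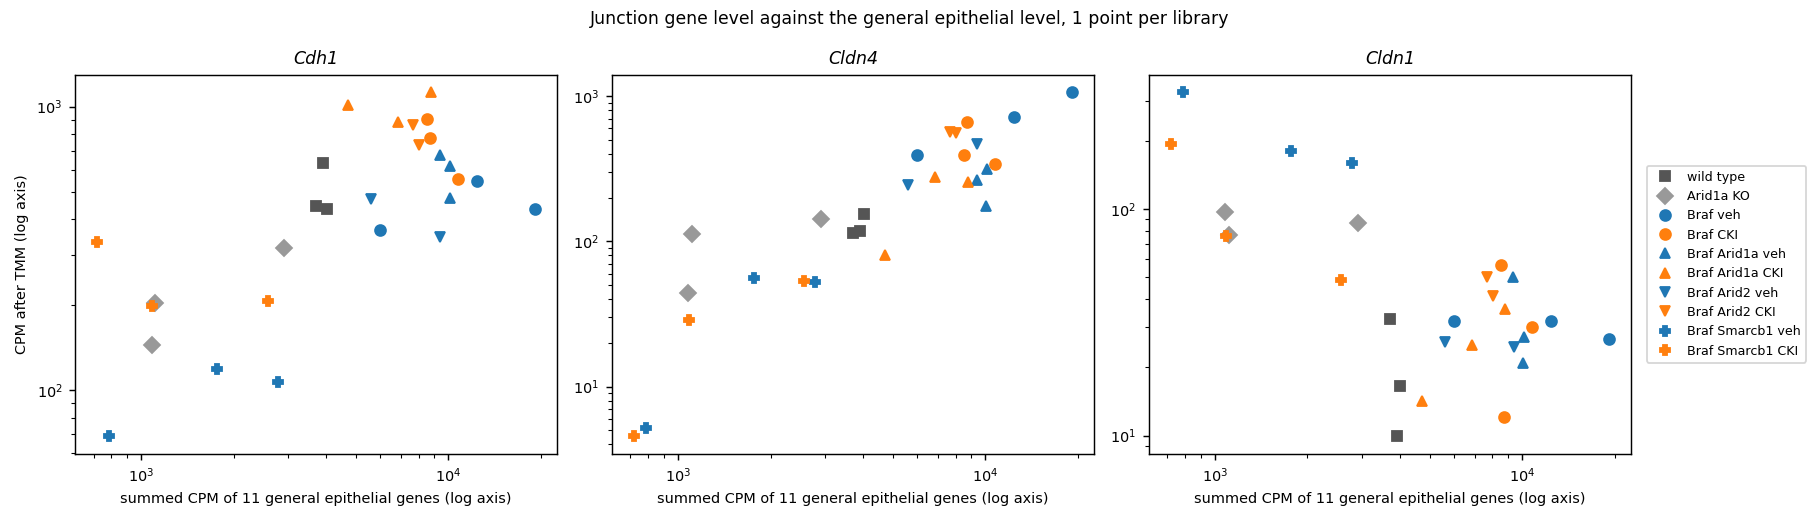
Each panel plots the level of Cdh1, Cldn4 or Cldn1 in CPM against the summed CPM of 11 general epithelial genes, both on log axes, with 1 point per library, marker shape for genotype and colour for treatment. The Braf Smarcb1 KO and Arid1a KO libraries sit at the left, where the epithelial sum is at most 2920, with Cdh1 at 334 CPM or less and Cldn1 at 48.8 CPM or more; Cldn4 is at 56.3 CPM or less in the former only, save 1 Arid1a KO library at 44.1 CPM.

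Other junction and epithelial genes, from lists drawn up with earlier results of these data known, were counted beside the 10. Of 12 other claudins tested, 7 fell and 1 rose under vehicle with Smarcb1 loss (median log2 fold change -2.55). Cldn6, a claudin of embryonic epithelia, fell from a mean of 81.4 to 4.74 CPM (-4.10, adjusted p = 3.65e-07), and Cldn8 and Cldn18 fell as well (-3.04 and -3.80). The one that rose was Cldn5, the claudin of blood vessels (3.77, adjusted p = 0.0142). Over the same libraries, 7 of 9 endothelial markers fell and none rose.

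Of 17 other tight junction genes, 8 fell and 2 rose (median -1.67). The polarity protein gene Crb3 fell by 3.72 on the log2 scale, the adhesion receptor gene Cxadr by 3.34, Marveld2 (tricellulin, of tricellular contacts) by 3.24 and Ildr1, an angulin of the same contacts, by 3.09. Jam3, an adhesion molecule of the junction, rose (2.52, adjusted p = 0.00576), from a mean of 26.8 CPM in Braf to 154 CPM in the knockout. Of 11 adherens junction genes 5 fell, among them Pvrl4 (nectin-4) by 3.83, Jup (plakoglobin) by 2.25 and the catenin gene Ctnna1 by 1.41. Among 9 desmosome genes 5 fell, with Dsp (desmoplakin) at -3.45 and Pkp3 at -3.26, and 2 plakophilin genes rose, Pkp1 by 3.96 and Pkp2 by 2.24.

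With CKI, Smarcb1 loss went with 4 lower of 12 other claudins, 10 lower and 2 higher (Jam3 among them) of 17 other tight junction genes, 4 lower of 11 adherens junction genes, and 5 lower and 1 higher (Pkp2) of 9 desmosome genes. Of these claudins, Cldn18 had a count of 0 in all 3 knockout CKI libraries, so that its fitted fold change, the lowest point in the plot of lists, has no meaning as a size. Of 10 transcription and splicing regulators of epithelial genes, 7 fell under vehicle (median -2.25), including the transcription factor genes Ovol1 (-3.62), Elf3 (-3.52) and Grhl3 (-3.49) and the splicing factor gene Esrp1 (-3.37), and 8 fell with CKI (median -2.31). Over all genes the median was 0.03 under either treatment, and 14.2% and 9.19% fell. Of 5 tested repressors of E-cadherin, edgeR's quasi-likelihood test called 0 under vehicle (median 0.49), and with CKI Twist1 (3.26) and Zeb2 (1.87) rose and Snai2 fell (-1.66). Under vehicle Twist1 (2.24, adjusted p = 0.0572) and Snai2 (-1.34, adjusted p = 0.0711) did not pass, though the libraries of each did not overlap.

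Several marker lists of other cells moved with the same comparison. Under vehicle 7 of 11 general epithelial genes, 5 of 10 fibroblast, 7 of 9 endothelial and 4 of 7 leukocyte markers fell. Summed fibroblast markers ran from 1304 to 2797 CPM in the knockout against 900 to 21959 CPM in Braf, summed leukocyte markers from 110.3 to 392 against 678 to 1025 CPM, and summed endothelial markers from 77.6 to 134 against 32.9 to 732 CPM. Their part in the junction gene differences was not tested by any model with several of these levels. The summed dissociation stress genes were lower in the knockout too (6819 to 9150 against 10119 to 14725 CPM), as were the summed thyrocyte markers (158 to 227 against 408 to 1166 CPM). With the leukocyte level or with the stress level alone as a covariate, all 7 vehicle calls were kept. Under vehicle the mean log2 leukocyte level lay apart between the genotypes (3.78 to 5.73 in the knockout, 6.47 to 7.02 in Braf). The leukocyte fit thus does not tell that level apart from genotype. With CKI, the stress level as a covariate ended the call of Tjp3 (adjusted p = 0.0510) and the leukocyte level ended none. The thyrocyte level was not tried as a covariate.

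**Figure D4:**
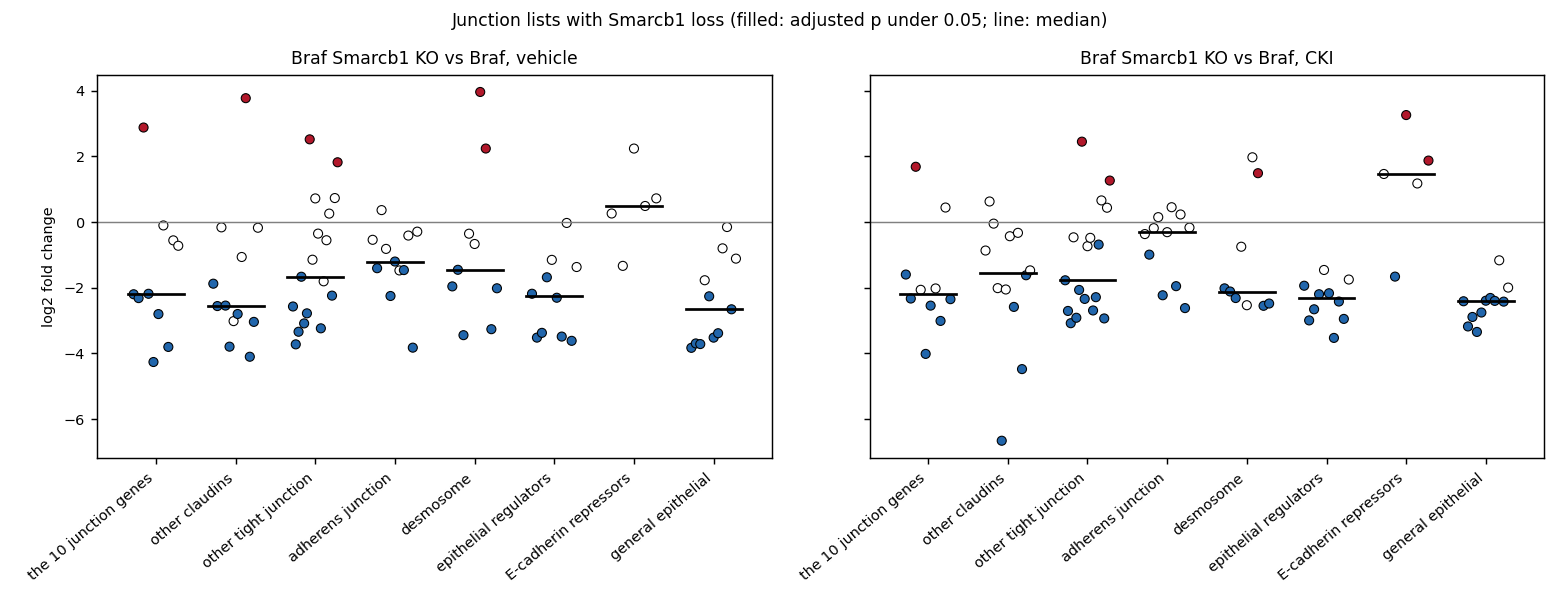
Log2 fold changes of Braf Smarcb1 KO against Braf are plotted by gene list, under vehicle (left) and with CKI (right); points are genes, filled where the adjusted p is under 0.05 (red higher, blue lower), and lines are list medians. In both panels the medians of the junction genes, desmosome genes, epithelial regulators and general epithelial genes lie below -1, and that of the E-cadherin repressors lies above 0.

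Calls of these genes with loss of Arid1a or Arid2 in Braf mutant thyroids were few, near the share of all genes. Cgn rose with Arid1a loss under vehicle, as the sole call among the 10, where 9.56% of all genes passed and 4.25% rose. By overlap alone, 4 of the 10 were apart (Cldn3, Tjp3 and Cgn higher and Cldn4 lower), beside 27.3% of all genes. Cgn measured 80.6, 82.7 and 67.7 CPM in Braf Arid1a KO and 17.0, 41.0 and 29.8 CPM in Braf, without overlap (log2 fold change 1.39, SE 0.38, adjusted p = 0.0239). That call was lost without Braf vehicle library 2 or 5 or without Braf Arid1a KO vehicle library 1 or 2 (adjusted p from 0.0627 to 0.0745). It was lost too in a fit of the 2 groups alone (adjusted p = 0.0560) and with the dissociation stress level as a covariate (adjusted p = 0.0796). With the replicate number as a block it was also lost (adjusted p = 0.0526). Beside it, 8 of 10 fibroblast and 6 of 9 endothelial markers were lower in Braf Arid1a KO.

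Tjp3 stood at 40.6, 25.4 and 27.4 CPM in Braf Arid1a KO and 24.7 and 29.1 CPM in Braf Arid2 KO, against 5.76, 2.57 and 9.28 CPM in Braf. Neither difference passed (log2 fold change 2.41, adjusted p = 0.0586, and 2.20, adjusted p = 0.132), although the libraries did not overlap in either. DESeq2 called Tjp3 with Arid1a loss, as did the edgeR fit with the replicate number as a block (3.17, adjusted p = 0.0393). Ocln measured 35.2 and 60.4 CPM in Braf Arid2 KO, below all 3 Braf libraries (-1.69, adjusted p = 0.176). With Arid2 loss under vehicle edgeR's quasi-likelihood test called 0 of the 10, with 2 at an unadjusted p under 0.05 (Ocln and Tjp3) and 0 by DESeq2, beside 3.61% of all genes. The libraries of 4 did not overlap (Tjp3 and Epcam higher, Cldn1 and Ocln lower), beside 34.8% of all genes.

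With CKI, edgeR's quasi-likelihood test called 0 of the 10 for Arid1a loss, with 1 at an unadjusted p under 0.05 (Cgn) and 0 by DESeq2, beside 2.30% of all genes. Of the 10, 2 did not overlap (Cgn higher and Cldn4 lower), beside 22.0%. It called 0 for Arid2 loss too, with 0 at an unadjusted p under 0.05 and 0 by DESeq2, beside 1.27% of all genes. There 3 did not overlap (Cldn3, Tjp3 and Epcam lower), beside 48.4% of all genes with these smaller groups. These comparisons and those of Smarcb1 loss share their Braf libraries.

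The MEK inhibitor was next compared with vehicle within each genotype. In Braf thyroids 2 of the 10 rose, Tjp3 and Cgn, where 13.0% of all genes passed and 7.96% rose. Tjp3, the ZO-3 scaffold, went from 5.76, 2.57 and 9.28 CPM with vehicle to 84.9, 70.2 and 38.4 CPM with CKI (log2 fold change 3.46, SE 0.83, adjusted p = 0.0123). Cgn went from 17.0, 41.0 and 29.8 CPM to 71.6, 67.8 and 126 CPM (1.59, SE 0.38, adjusted p = 0.0121). CKI libraries lay above vehicle libraries for both genes, and also for Cldn3, Cldn7 and Cdh1, which did not pass (log2 fold changes 0.84, 0.81 and 0.73). These 5 of 10 stand beside 33.6% of all genes whose libraries did not overlap.

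Both Braf calls were lost without vehicle library 2 (adjusted p = 0.0533 for Tjp3 and 0.0578 for Cgn), and that of Tjp3 without vehicle library 4 (adjusted p = 0.0522). Leukocyte markers fell with CKI in Braf thyroids, 7 of 7, from a sum of 678 to 1025 CPM down to 80.8 to 191 CPM, and 5 of 13 dissociation stress genes rose. With the leukocyte level as a covariate neither call was kept (Tjp3 2.29, adjusted p = 0.407, and Cgn 1.82, adjusted p = 0.209). The same held with the stress level as a covariate (Tjp3 1.72, adjusted p = 0.433, and Cgn 1.29, adjusted p = 0.258). Leukocyte and stress levels each lay apart between these groups, so losing a call there does not tell them apart from treatment. Without a covariate the log2 fold changes were 3.46 for Tjp3 and 1.59 for Cgn. The general epithelial level was 8537 to 10762 with CKI, inside its vehicle range, and 8 of 9 thyrocyte markers rose.

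In Braf Smarcb1 KO, Cgn and Cdh1 rose with CKI, where 3.85% of all genes passed and 1.80% rose. Cgn went from 3.26, 6.60 and 7.77 CPM to 18.3, 23.9 and 10.5 CPM (log2 fold change 1.58, SE 0.39, adjusted p = 0.0230). Cdh1 went from 68.8, 119 and 107 CPM to 198, 206 and 334 CPM (1.33, SE 0.30, adjusted p = 0.0148). The CKI libraries were above the vehicle libraries in both genes, and still below every Braf vehicle library for Cdh1. With Tjp1, 3 of the 10 did not overlap, all higher with CKI, beside 21.8% of all genes. In the same libraries 1 of 13 dissociation stress genes rose, and their summed CPM ran from 17216 to 20581 with CKI against 6819 to 9150 without. Of 9 thyrocyte markers 5 rose, and their summed CPM ran from 1624 to 2364 against 158 to 227. Cgn lost its call without vehicle library 1 (adjusted p = 0.125) or CKI library 1 or 2 (adjusted p = 0.0672 and 0.0964). Cdh1 lost it without vehicle library 1 or CKI library 4 (adjusted p = 0.0889 and 0.0748). Neither passed with the stress level as a covariate (adjusted p = 0.172 for Cgn and 0.114 for Cdh1), nor in a fit of the 2 groups alone (adjusted p = 0.165 and 0.122). The stress level lay apart between these groups, so the covariate fit does not tell it apart from treatment.

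In Braf Arid1a KO edgeR's quasi-likelihood test called 0 of the 10 for CKI, with 2 at an unadjusted p under 0.05 (Cgn and Cdh1) and 1 by DESeq2 (Cgn), beside 4.51% of all genes. These 2 were also the ones without overlap, beside 27.5% of all genes. In Braf Arid2 KO it called 0, again with Cgn and Cdh1 at an unadjusted p under 0.05 and 1 by DESeq2 (Cgn), beside 3.37% of all genes. With 2 libraries a group, 8 of the 10 did not overlap, 6 higher and 2 lower (Cldn3 and Epcam), beside 53.6% of all genes. Cgn went from 80.6, 82.7 and 67.7 to 157, 223 and 177 CPM in Braf Arid1a KO (log2 fold change 1.27, adjusted p = 0.0556) and from 46.7 and 23.0 to 92.4 and 118 CPM in Braf Arid2 KO (1.59, adjusted p = 0.0607). Cdh1 went from 477, 616 and 674 to 1012, 879 and 1128 CPM in Braf Arid1a KO (0.77, adjusted p = 0.136) and from 471 and 346 to 735 and 862 CPM in Braf Arid2 KO (0.97, adjusted p = 0.134).

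For Cgn and Cdh1, then, every CKI library lay above every vehicle library of its genotype in 4 of 4 genotypes. Of all 19016 genes, 190 (0.999%) did so, and 147 (0.773%) lay lower throughout. The summed thyrocyte markers lay higher with CKI in all 4 genotypes too, from 408 to 1166 up to 8957 to 22077 CPM in Braf and from 604 to 1671 up to 23149 to 35507 CPM with Arid1a loss. With Arid2 loss they went from 783 to 998 up to 38854 to 64873 CPM. Over all 28 libraries Cgn had an r of 0.74 and Cdh1 of 0.57 with the mean log2 level of these markers, as a description. With that of the general epithelial genes they had 0.67 and 0.79. The part of the thyrocyte markers in the differences of Cgn and Cdh1 was not tested. The log2 fold changes of Cgn lay between 1.27 and 1.59 and those of Cdh1 between 0.73 and 1.33. No other junction gene did this. Tjp3 had values of 3.46 in Braf, 1.17 with Arid1a loss, -0.20 with Arid2 loss and 1.83 with Smarcb1 loss, and Epcam of 1.85, 1.37, -1.05 and -0.06.

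**Figure D5:**
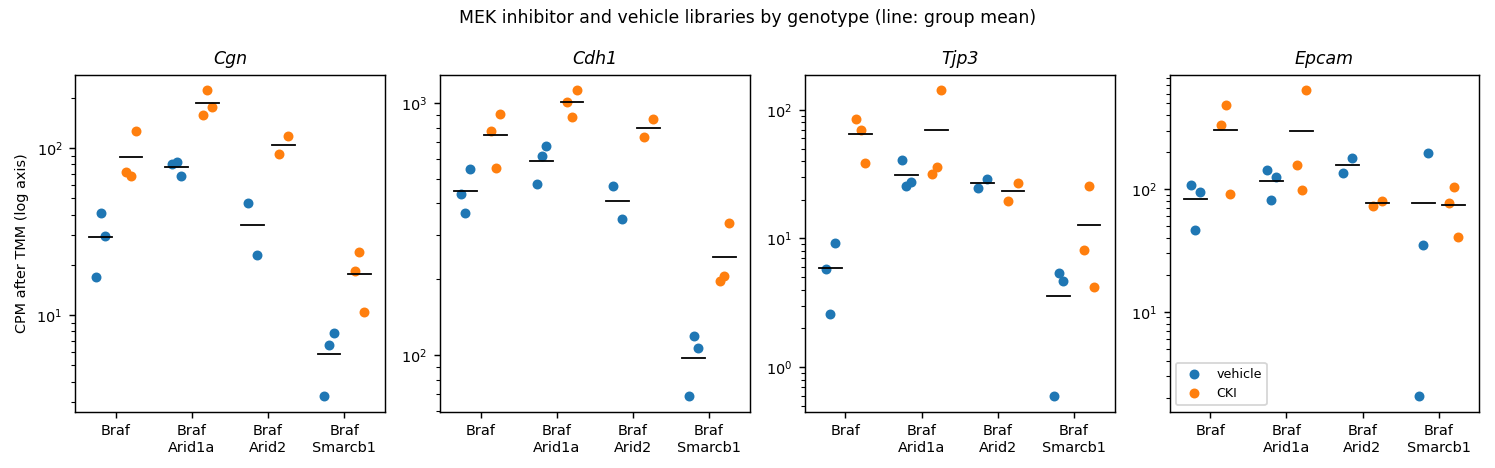
The level of Cgn, Cdh1, Tjp3 and Epcam in CPM (log axis) is plotted by genotype, with vehicle libraries in blue, CKI libraries in orange and lines at group means. For Cgn and Cdh1 the orange points lie above the blue points in all 4 genotypes, while for Tjp3 that holds in Braf alone and for Epcam in none.

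Differences of drug response between genotypes were tested directly. Against Braf, edgeR's quasi-likelihood test called 0 of the 10 for Braf Arid1a KO, 0 for Braf Arid2 KO and 0 for Braf Smarcb1 KO, beside 0%, 8.66% and 0.305% of all genes. At an unadjusted p under 0.05 stood Tjp3 with Arid1a loss, Tjp3 and Epcam with Arid2 loss, and 0 with Smarcb1 loss, while DESeq2 called 0, 1 (Tjp3) and 0. The largest difference was that of Tjp3 with Arid2 loss, with a log2 difference in response of -3.66 (adjusted p = 0.0658). For Cgn the differences from Braf were -0.32, -0.00401 and -0.0131 and for Cdh1 0.05, 0.24 and 0.60. A p above the threshold does not show that responses were alike.

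The Braf mutation was read from Braf vehicle thyroids against untreated wild type, so vehicle dosing went along with it. Cldn4 rose and Cgn fell, 2 of the 10, where 20.0% of all genes passed, 9.84% higher and 10.1% lower. With Tjp3 (lower, adjusted p = 0.109), 3 of the 10 did not overlap, beside 38.0% of all genes. Cldn4 went from 154, 119 and 114 CPM in wild type to 1074, 396 and 717 CPM (log2 fold change 2.50, SE 0.74, adjusted p = 0.0192). Cgn went from 77.0, 85.4 and 48.9 CPM to 17.0, 41.0 and 29.8 CPM (-1.27, SE 0.38, adjusted p = 0.0213). Neither gene overlapped between groups. Cdh1 measured 437, 632 and 446 CPM in wild type and 435, 368 and 548 CPM in Braf (-0.17, adjusted p = 0.733), while 8 of 9 thyrocyte markers fell. Relative to the general epithelial level, Cldn4 was still higher in Braf, and 7 of the 10 were lower, where 60.9% of all genes did not overlap.

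Both calls against wild type were fragile. Cldn4 was lost without Braf vehicle library 2 or wild-type library 2 or 3 (adjusted p from 0.0672 to 0.0782). Cgn was lost without Braf vehicle library 2 or 5 or wild-type library 1 or 2 (adjusted p from 0.0572 to 0.106). With the leukocyte level as a covariate neither was called (adjusted p = 0.0639 for Cldn4 and 0.0562 for Cgn). That level lay apart between the groups, so the fit does not tell it apart from the Braf mutation. Wild-type libraries also held markers of C cells and parathyroid at a sum of 17251 to 34485 CPM against 46.9 to 143 CPM in Braf vehicle. Of 9 endothelial markers 9 were lower in Braf, and 6 of 10 fibroblast markers were higher. Their part in these differences was not tested.

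With CKI, Braf thyroids had 0 of the 10 called against wild type by edgeR's quasi-likelihood test, with 5 at an unadjusted p under 0.05 (Cldn3, Cldn4, Cldn7, Tjp3 and Epcam) and 3 by DESeq2 (Cldn3, Cldn4 and Epcam), beside 17.2% of all genes. Libraries of these 5 genes lay above wild type without overlap, beside 42.8% of all genes that did not overlap, and Cgn, at 71.6, 67.8 and 126 CPM, lay around the wild-type values (log2 fold change 0.33, adjusted p = 0.593).

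Untreated Arid1a KO thyroids were compared with wild type. Here 3 of the 10 fell and 1 rose, where 18.6% of all genes passed, 6.84% higher and 11.8% lower. Cdh1 went from 437, 632 and 446 CPM to 203, 318 and 145 CPM (log2 fold change -1.19, SE 0.30, adjusted p = 0.00872). Tjp3 went from 11.9, 34.3 and 15.1 CPM to 1.20, 5.18 and 0.795 CPM (-3.08, SE 0.83, adjusted p = 0.0127) and Cldn3 from 151, 314 and 216 CPM to 12.7, 117 and 11.2 CPM (-2.27, SE 0.76, adjusted p = 0.0386). Cldn1 rose from 16.5, 9.92 and 32.7 CPM to 76.8, 86.5 and 96.7 CPM (2.13, SE 0.54, adjusted p = 0.00899). The groups did not overlap for any of these 4, nor for Cldn7 and Cgn, which were lower but did not pass, so that 6 of 10 were apart beside 38.6% of all genes. Among the genes that passed, knockout library 2 was the nearest to wild type for Cdh1, Tjp3 and Cldn3.

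Markers of other cells differed in the same libraries. Of 7 leukocyte markers 7 rose, from a sum of 162 to 418 CPM in wild type to 1736 to 2820 CPM. Of 10 fibroblast markers 6 rose, from 764 to 1486 CPM to 10087 to 13751 CPM, and 2 of 11 general epithelial genes fell. Of the 5 tested repressors of E-cadherin 2 rose, Zeb1 and Zeb2, which fibroblasts and leukocytes also express. With the leukocyte level as a covariate none of the 4 junction calls was kept (adjusted p from 0.194 to 0.593), and Cldn1 then had a log2 fold change of 2.69. With the stress level as a covariate Cldn3 was lost (adjusted p = 0.123). Each level, as the mean log2 value used in the fit, lay apart between the groups, so neither fit tells it apart from genotype. Relative to the general epithelial level, Cdh1 overlapped (10.9% to 18.2% against 10.9% to 16.1%), as did Cldn3, whereas Tjp3 was lower (0.0735% to 0.177% against 0.297% to 0.875%) and Cldn1 higher (2.96% to 8.94% against 0.254% to 0.883%). In all 6 of the 10 did not overlap on this scale, beside 48.6% of all genes.

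Single libraries carried weight in this comparison. Without wild-type library 2 all 4 calls were lost (adjusted p = 0.0580 for Cldn1, 0.139 for Cldn3, 0.0757 for Tjp3 and 0.0665 for Cdh1). Without Arid1a KO library 1 or 3, Cldn3, Tjp3 and Cdh1 were lost (adjusted p from 0.0528 to 0.177), and Cldn3 also without wild-type library 3 (adjusted p = 0.0655).

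Adding Braf V600E to Arid1a loss was read from Braf Arid1a KO vehicle against untreated Arid1a KO, which differed in dosing too. Of the 10, 4 rose and 1 fell, where 40.5% of all genes passed, 21.3% higher and 19.2% lower. Libraries of 8 genes did not overlap (7 higher and 1 lower), beside 52.3% of all genes. Cldn3 went from 12.7, 117 and 11.2 CPM to 1887, 1609 and 878 CPM (log2 fold change 4.96, SE 0.85, adjusted p = 0.000120). Tjp3 (3.69, adjusted p = 0.00156), Cldn7 (3.15, adjusted p = 0.00167) and Cdh1 (1.41, adjusted p = 0.000805) rose with it, and these 4 calls were kept whichever library was left out. Cldn1 fell from 76.8, 86.5 and 96.7 CPM to 27.2, 20.9 and 49.9 CPM (-1.41, SE 0.53, adjusted p = 0.0371), a call lost without Braf Arid1a KO vehicle library 1 or 2 or Arid1a KO library 3 (adjusted p from 0.0870 to 0.136) and also once the stress level was a covariate (adjusted p = 0.0963). In these libraries 7 of 11 general epithelial genes rose, and 10 of 10 fibroblast, 9 of 9 endothelial and 5 of 7 leukocyte markers fell. The mean log2 stress level lay apart between these groups too, so the covariate fit does not tell it apart from group.

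How the genes varied together was described over all 28 libraries, which share genotype, treatment and tissue make-up, with Pearson's r of log2(CPM + 1). Among the 36 pairs without Cldn1, 33 had a positive r, with a median of 0.62 and a range from -0.12 to 0.88. The closest pairs were Cgn with Cdh1 (0.88), Cldn3 with Cldn7 (0.87) and Cldn3 with Tjp3 (0.85). The neighbouring genes Cldn3 and Cldn4 had 0.63. All 9 pairs with Cldn1 were negative, with a median of -0.67, though that with Tjp1 was only -0.02. With group means taken away Cldn1 had 0.44 with Tjp1 and 0.08 with Cdh1. Its other pairs stayed negative, from -0.44 to -0.27. After group means were taken away the closeness of Cgn and Cdh1 fell to 0.26, while those of Cldn3 with Cldn7 and with Tjp3 stayed at 0.82 and 0.87.

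With the mean log2 level of the general epithelial genes, Cldn7 had an r of 0.98, Cldn4 of 0.91 and Cldn3 of 0.85, Tjp1 of -0.06 and Cldn1 of -0.75. For each junction gene, the gene most like it was taken among 10477 genes with a mean of at least 5 CPM. These were Plau for Cldn1 (r = 0.87), Rassf7 for Cldn3 (0.98), Hspb8 for Cldn4 (0.90), Ripk4 for Cldn7 (0.97), Nedd9 for Ocln (0.95) and Col4a1 for Tjp1 (0.82). For Tjp3 it was Slc25a29 (0.94), for Cgn the transcription factor gene Grhl2 (0.94), for Cdh1 Fbxo44 (0.93) and for Epcam Atp1b1 (0.93). Ocln was also close to Marveld2 (0.95), its neighbour on chromosome 13 in RefSeq. Within groups the likeness of Cdh1 and Fbxo44 was 0.30, and that of Cldn7 and Ripk4 0.91.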

How the data were processed

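Whole-number read counts per gene, which the authors deposited as 1 table for the series with no normalization, were used. The submitters' processing notes name the build mm9 and the tools STAR 2.4, HTSeq 0.6.1 and DESeq2, without role or order. Libraries were made with a TruSeq RNA kit per the labels; strand is not stated in the sources used here, so reads of overlapping or antisense genes may be counted together. Fits planned on 30 samples were run on 28, since Braf Arid2 KO vehicle replicate 1 and CKI replicate 2 were not analysed here. Titles gave each sample's group and replicate number. Within groups, all 26 library pairs differed beyond sampling noise (77.0 to 359 chi-square units a degree of freedom), and each library counted as a replicate.

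From the counts, CPM was computed here after TMM (factors 0.723 to 1.25). edgeR 4.0.16 in R 4.3.3 (filterByExpr, which left 19016 of 33924 genes, then glmQLFit and glmQLFTest) fitted 1 term per group over all 28 libraries, with Benjamini-Hochberg adjustment over all genes tested and a threshold of 0.05. The alternatives tried were DESeq2 1.42.0, a covariate for the leukocyte or the dissociation stress level, a block for the replicate number, a fit of the compared groups alone, RLE size factors, all genes unfiltered, and each library left out. The scripts were tested on simulated data. The 10 genes, the gene lists and the alternatives were chosen with earlier results of these data known. All 10 genes are named with levels; fold changes are given for those that pass and for some that do not, and up to 4 passing genes of each other list with the largest changes are named, besides a few chosen after their values were seen (Pkp2 and the claudin Cldn5 as genes that rose, Ctnna1, Zeb1 and Marveld2 as a neighbour). One gene of the tight junction list is counted but not reported here by name. Transcript lengths for CPM per kilobase are those of the longest transcript in an annotation of GRCm38, not the one used for counting.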

Additional observations from a re-analysis of the deposited data

How the results depend on the processing

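Of 30 calls of a junction gene in a comparison, 14 were kept whichever library was left out, and none reversed under any alternative. All 30 were kept with RLE size factors, with no filter and with DESeq2, 26 with the replicate block, and 22 each with the leukocyte level, with the stress level and with only the compared groups.

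Counts of junction genes called that changed by over 1.5 times are these. With the leukocyte level, Braf vehicle against wild type gave 0 in place of 2, Arid1a KO against wild type 0 in place of 4 and CKI in Braf 0 in place of 2. With the stress level, CKI in Braf gave 0 in place of 2, CKI in Braf Smarcb1 KO 0 in place of 2, Arid1a loss in Braf under vehicle 0 in place of 1 and CKI in Braf Arid2 KO 1 in place of 0. In each comparison named for these levels, the mean log2 level did not overlap between the groups, so it cannot be told apart from group there. With only the compared groups, Braf Arid1a KO vehicle against Arid1a KO gave 8 in place of 5, Braf with CKI against wild type 5 in place of 0 and CKI in Braf Smarcb1 KO 0 in place of 2. CKI in Braf Arid1a KO, CKI in Braf Arid2 KO and the Arid2 difference in response each gave 1 in place of 0. DESeq2 gave 3 in place of 0 for Braf with CKI against wild type, 2 in place of 1 for Arid1a loss under vehicle, and 1 in place of 0 for CKI in Braf Arid1a KO, CKI in Braf Arid2 KO and the Arid2 difference. RLE size factors gave 1 in place of 0 for CKI in Braf Arid1a KO, and no filter 1 in place of 0 for Braf with CKI against wild type. The cause of these changes was not tested, except that a fit of only the compared groups has fewer samples.

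Of 9 pairs of same-numbered libraries, 1 had a correlation of deviations over 0.1 (range -0.54 to 0.24). With groups of 2 or 3 libraries this cannot show whether the numbers pair the samples. With the replicate number as a block, Braf vehicle against wild type gave 1 call in place of 2 and CKI in Braf Smarcb1 KO 1 in place of 2.

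Leaving out each library in turn gave these counts. Smarcb1 loss gave 6 to 7 under vehicle and 4 to 8 with CKI, and Braf Arid1a KO vehicle against Arid1a KO 4 to 5. Braf vehicle against wild type gave 0 to 2, Arid1a KO against wild type 0 to 5, and Braf with CKI against wild type 0 to 1. Arid1a loss under vehicle gave 0 to 1, and CKI 0 to 2 in Braf and 0 to 2 in Braf Smarcb1 KO. The other 8 counts stayed at 0. Where this left 1 Braf Arid2 KO library in a group, it was assumed to vary like the other groups. Groups of 2 or 3 libraries limit these results, and no other depth was tried.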
